A study of Mus musculus with 11 samples.

Results

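Cholesterol synthesis and its control by the transcription factor SREBP2 were followed through 7 genes, Hmgcs1, Idi1, Fdft1, Sqle, Cyp51, Insig1 and Srebf2, of the 25562 gene symbols in the expression table. They were taken by name, as listed genes of sterol synthesis and uptake, and all 7 were in the table and passed the filter on low values in every comparison. RNA was measured in 11 bulk libraries of splenic CD8+ T cells from C57BL/6 mice, isolated with a selection kit. All libraries came from cells activated for 24 h with anti-CD3 at 1 µg/mL and anti-CD28 at 0.5 µg/mL after 22 h of pretreatment. The 4 AOAH libraries had 10 µg/mL of recombinant human AOAH, acyloxyacyl hydrolase, a lipase best known for removing acyl chains from bacterial lipopolysaccharide, together with ethanol. The 3 PC libraries had 60 µM PC16:0-20:4, a phosphatidylcholine with a palmitoyl and an arachidonoyl chain, and phosphate buffer with 10% glycerol. The 4 vehicle libraries had ethanol and that glycerol buffer.

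The labels place AOAH in the pretreatment in the protocol and in the activation step in the sample descriptions. Plate-bound antibody and beads are both named, and interleukin-2 is given as optional in the medium. No glycerol share is stated for the AOAH cells, so effects of AOAH and of its buffer cannot be told apart. Libraries are numbered by batch, 1 to 4, and there is no PC library of batch 4. The labels name no animal or culture per library, and a p-value here measures the spread between libraries, which may be technical. In bulk RNA, fewer cells that express a gene and less of its RNA per cell cannot be told apart.

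Cells make cholesterol from acetyl-CoA through mevalonate, isoprenoid pyrophosphates, squalene and lanosterol. SREBP2, the product of Srebf2, is held in the endoplasmic reticulum by SCAP and the INSIG proteins while sterol is plentiful. When sterol falls it moves to the Golgi, is cut by proteases and enters the nucleus, where it raises transcription of nearly every enzyme of the pathway, of Insig1 and of Srebf2 itself. Activated T cells are known to use this pathway to build membrane before they divide.

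SREBP2 binds sterol regulatory elements near the start of its target genes, often beside sites for NF-Y and Sp1. RefSeq promoters (GRCm38.p6, which is not the build of the files) were matched for 5 of the 7 genes, all except Sqle and Fdft1. The 250 bases before the start are shown for Idi1 and Cyp51, the genes that moved in comparisons with vehicle, and for Hmgcs1 and Srebf2, which hold a sterol element of the form searched. Capitals mark matches on either strand to TCACNCCA (sterol element), CCAAT (NF-Y box) and GGGCGG (GC box, the Sp1 site), each sequence running 5′ to 3′ on the strand of its gene. CACGTG (E-box) was searched as well and is in none of these 4. Idi1 lies at chr13:8885356-8885605 on the plus strand, Cyp51 at chr5:4104698-4104947 on the minus strand, Hmgcs1 at chr13:119690101-119690350 and Srebf2 at chr15:82147019-82147268, both on the plus strand.
Idi1: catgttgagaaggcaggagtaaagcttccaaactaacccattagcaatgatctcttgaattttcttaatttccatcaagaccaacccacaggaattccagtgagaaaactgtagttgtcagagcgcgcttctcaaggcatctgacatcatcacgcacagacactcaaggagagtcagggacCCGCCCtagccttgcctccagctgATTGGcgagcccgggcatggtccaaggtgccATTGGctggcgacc
Cyp51: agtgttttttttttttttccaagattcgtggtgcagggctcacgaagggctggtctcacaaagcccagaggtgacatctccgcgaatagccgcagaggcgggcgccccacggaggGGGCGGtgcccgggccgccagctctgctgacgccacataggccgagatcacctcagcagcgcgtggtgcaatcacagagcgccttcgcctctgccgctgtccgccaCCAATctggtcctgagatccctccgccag
Hmgcs1: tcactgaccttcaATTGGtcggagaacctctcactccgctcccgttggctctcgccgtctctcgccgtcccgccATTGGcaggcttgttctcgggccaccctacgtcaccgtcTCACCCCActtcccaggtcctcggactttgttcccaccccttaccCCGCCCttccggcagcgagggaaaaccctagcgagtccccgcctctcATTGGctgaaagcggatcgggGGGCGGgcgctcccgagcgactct
Srebf2: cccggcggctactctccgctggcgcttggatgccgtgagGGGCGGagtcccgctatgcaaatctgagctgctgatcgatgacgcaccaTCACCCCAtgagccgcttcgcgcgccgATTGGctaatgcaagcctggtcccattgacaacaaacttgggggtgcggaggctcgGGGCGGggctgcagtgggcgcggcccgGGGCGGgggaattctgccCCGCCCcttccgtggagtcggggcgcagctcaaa

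The sterol element matched once in Hmgcs1, 137 to 130 bases before the start, and once in Srebf2, 162 to 155 bases before it. No match lay in these 250 bases of Idi1, Cyp51 or Insig1, which says only that those letters are not in the windows. Over 32851 promoters of the same length, 3.67% held this motif. The NF-Y box matched 3 times in Hmgcs1, 2 times in Idi1 and once each in Insig1, Cyp51 and Srebf2, against 33.8% of all promoters with at least 1 match. The GC box matched in all 5 as well, between 1 and 4 times, against 32.7% of all promoters. The E-box, held by 6.02% of promoters, matched in Insig1 at 101 to 96 bases before its start. None of the 4 motifs overlapped another in the promoters printed.

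Libraries of a group were alike, with correlations across genes of 0.983 to 0.988 and no identical pair. Between 11423 and 11739 genes reached 1 TPM, a unit that gives a gene's share of the transcripts of a library, corrected for length. Summed TPM of 6 CD8 T cell genes lay at 1493 to 1537 in the AOAH libraries, 1905 to 1964 in the PC libraries and 1701 to 1735 in the vehicle libraries, and Cd4 at no more than 0.42 TPM in any library. Of the other cell types looked for, B cell genes summed to 134 to 142 TPM in AOAH libraries, 172 to 177 TPM in PC libraries and 155 to 161 TPM in vehicle libraries, nearly all of it Ighm. Myeloid genes summed to at most 8.24 TPM and NK genes to at most 2.41 TPM, and the red cell gene Hba-a1 reached at most 0.63 TPM. The cycling genes Mki67, Top2a, Ccnb1, Cdk1 and Birc5 separated the groups, with sums of 524 to 545 TPM in AOAH libraries, 177 to 197 TPM in PC libraries and 370 to 454 TPM in vehicle libraries.

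The 7 genes stood in the same order of level in all 3 groups, Idi1 highest, then Srebf2, Hmgcs1, Cyp51, Sqle, Insig1 and Fdft1. No neighbours in that order overlapped in range within any group. In vehicle cells the means were 139 TPM for Idi1, 88.9 for Srebf2, 58.1 for Hmgcs1, 43.2 for Cyp51, 37.2 for Sqle, 29.3 for Insig1 and 15.8 for Fdft1. Most of the 7 varied less between libraries than the median gene. The SD of log2(TPM + 1) over all 11 libraries was 0.04 for Sqle to 0.15 for Cyp51. The median was 0.15 over 11596 genes that averaged 1 TPM or more and were not matched to the 7 for level. Only Idi1 and Cyp51, also at 0.15, reached that median.

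**Figure D1:**
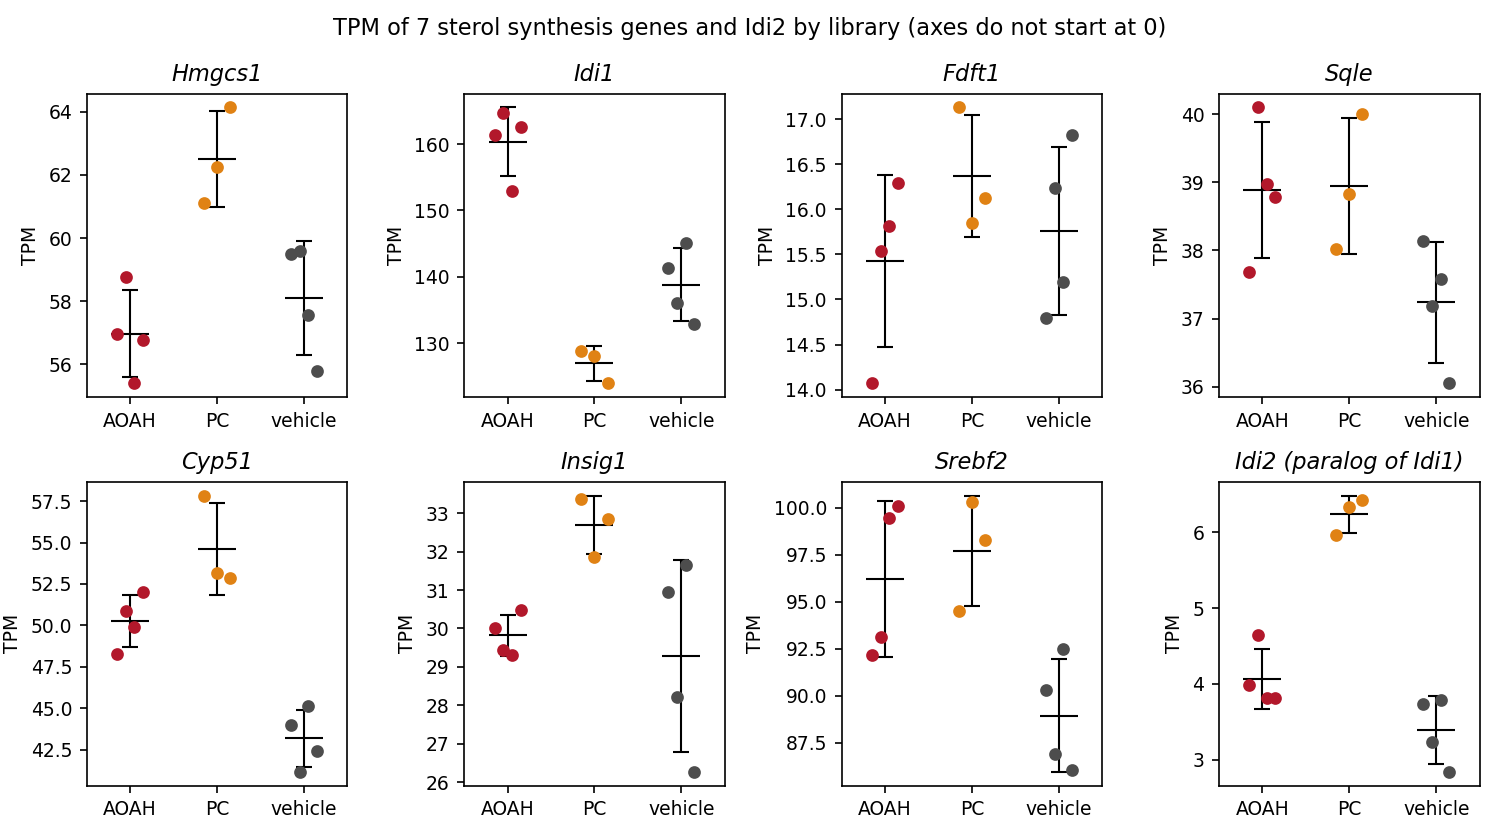
TPM of the 7 genes and of Idi2 in each library, with points for libraries, long lines for group means and bars for 1 SD (AOAH n = 4, PC n = 3, vehicle n = 4). Axes do not start at 0. Idi1 separates all 3 groups, with PC lowest and AOAH highest, while Cyp51 is lowest in vehicle.

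AOAH raised 2 of the 7 genes, by about the same share. Idi1, the isomerase that makes dimethylallyl pyrophosphate, was 15.5% higher, and Cyp51, the lanosterol demethylase, was 16.4% higher. Hmgcs1, Fdft1, Sqle, Insig1 and Srebf2 did not pass the test. With limma on log2(TPM + 1) at a Benjamini-Hochberg adjusted p under 0.05, 25.2% of the 11561 genes tested were called in this comparison (13.1% higher and 12.1% lower), so 2 of 7 genes (28.6%) is near the background. The median log2 change of the 7 was 0.06, against 0.01 over all genes tested.

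PC moved the same pair of genes, but in opposite directions. Cyp51 was 25.8% higher than in vehicle 1 to 3, and Idi1 fell by 9.85%. The Idi1 call was lost in 7 of 16 alternative settings, given below, and was not made in the authors' deposited table. The other 5 genes had positive log2 changes of 0.05 to 0.12 and did not pass the test. Of the 11628 genes tested with PC, 19.5% were called (8.27% higher and 11.2% lower), against 1 higher and 1 lower of the 7, and the median log2 change of the 7 was 0.08, against -0.01 over all genes. This comparison shares vehicle 1 to 3 with that of AOAH, so the values stand side by side and their likeness was not tested.

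Set directly against PC, AOAH cells had more Idi1, by 26.3%, and less Hmgcs1 and Insig1, which fell by 8.85% and 8.80%. Fdft1, Sqle, Cyp51 and Srebf2 did not pass. Here 45.8% of 11596 genes were called (24.3% higher and 21.5% lower), so 3 of 7 genes (42.9%) is again near the background. The median log2 change of the 7 was -0.08, against 0.003 over all genes.

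**Figure D2:**
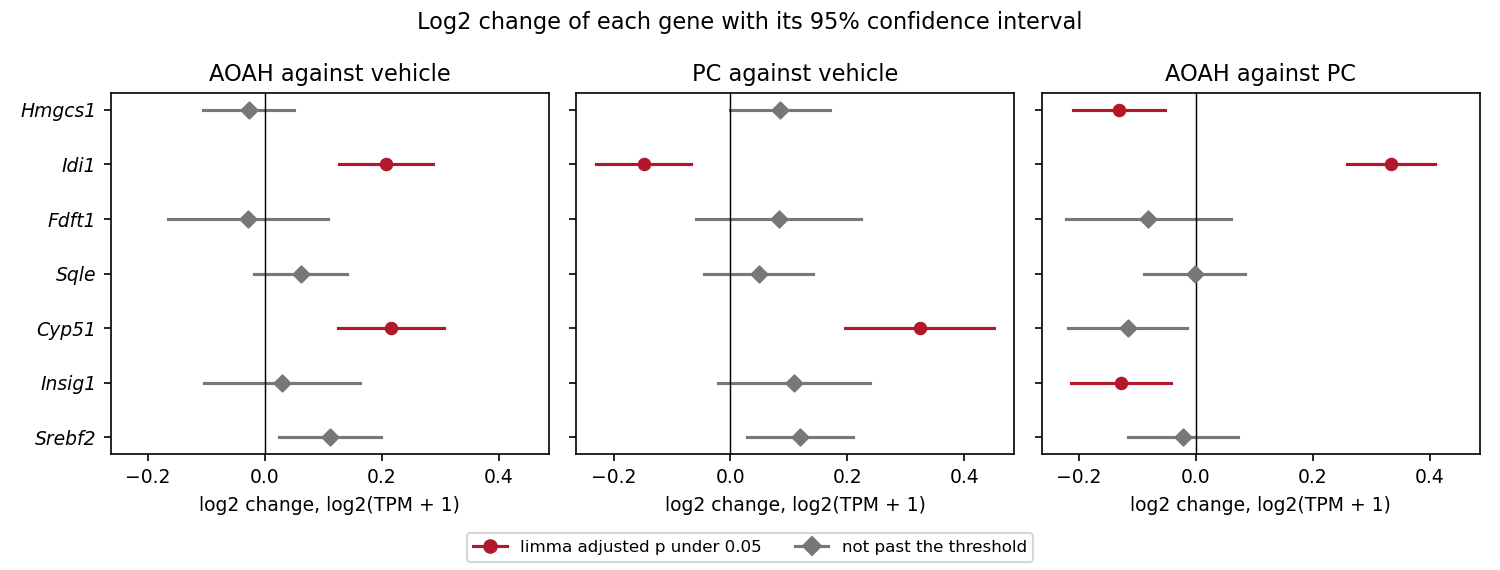
Log2 change on log2(TPM + 1) with its 95% confidence interval for each gene in 3 comparisons, from limma. Red circles passed an adjusted p of 0.05 and grey diamonds did not. Idi1 is the only gene with intervals on opposite sides of 0 in AOAH and PC against vehicle, at 0.21 and -0.15.

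Hmgcs1 encodes cytosolic HMG-CoA synthase, an early enzyme of the mevalonate pathway. Its levels were 57.0, 58.8, 55.4 and 56.8 TPM in AOAH libraries, 61.1, 62.3 and 64.1 TPM in PC libraries and 59.5, 59.6, 57.6 and 55.8 TPM in vehicle libraries. All PC libraries were above all others, and AOAH and vehicle overlapped. The log2 change was -0.03 with AOAH against vehicle (95% interval -0.11 to 0.05, limma adjusted p = 0.600) and 0.08 with PC against vehicle 1 to 3 (-0.001 to 0.17, adjusted p = 0.154). Against PC it fell by 0.13 ± 0.03 on the log2 scale (SE) in AOAH cells, with an adjusted p of 0.0140, lower in 3 of 3 same-batch pairs. That call was lost with batch as a replicate block (adjusted p = 0.0725) and without PC 3 (0.0580).

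Idi1 encodes isopentenyl diphosphate isomerase, which sets the balance of the 5-carbon isoprenoid units. AOAH libraries had 161, 165, 153 and 162 TPM, PC libraries 129, 128 and 124 TPM, and vehicle libraries 141, 136, 145 and 133 TPM. No group overlapped another. The mean was 160.4 ± 5.18 TPM in AOAH cells (SD, n = 4) and 139 ± 5.47 TPM in vehicle cells (n = 4), a log2 change of 0.21 ± 0.04 (95% interval 0.13 to 0.29, limma adjusted p = 0.00328), higher in 4 of 4 same-batch pairs. With PC the mean was 127 ± 2.63 TPM (n = 3), against 141 ± 4.58 TPM in vehicle 1 to 3, a change of -0.15 ± 0.03 (-0.23 to -0.07, adjusted p = 0.0259), lower in 3 of 3 pairs. Between AOAH and PC the change was 0.33 ± 0.03 (0.26 to 0.41, adjusted p = 1.11e-04).

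The rise of Idi1 with AOAH passed the threshold in 17 of 17 alternative settings, and its difference between AOAH and PC in 16 of 16. Its fall with PC passed in 9 of 16. It was lost with batch as a replicate block (adjusted p = 0.0683), without a filter (0.0661), without PC 1 (0.0550), PC 2 (0.0634) or PC 3 (0.0844), and without vehicle 1 (0.0802) or vehicle 3 (0.0824). The authors' deposited table gave a log2 change of -0.14 ± 0.06 for it with PC (adjusted p = 0.0962) and of 0.20 ± 0.05 with AOAH (adjusted p = 2.92e-04). The summed cycling genes had the same order of groups as Idi1. Over the 5 single cycling genes, the median log2 change against vehicle was 0.36 with AOAH and -1.27 with PC. The part of these genes in the result was not tested. Gene models not analysed here share sequence with Idi1, led by Gm13502 with 18.4% of its 31-base stretches, so reads of Idi1 could be split with theirs.

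Idi2, the second isopentenyl diphosphate isomerase gene, was added after its values were seen. It had 3.99, 4.64, 3.81 and 3.82 TPM in AOAH libraries, 5.96, 6.33 and 6.42 TPM in PC libraries and 3.73, 3.23, 3.79 and 2.84 TPM in vehicle libraries. The PC libraries stood above all others, where Idi1 was lowest. With PC its log2 change was 0.66 ± 0.09 (limma adjusted p = 0.00319), from means of 6.24 ± 0.244 TPM in PC libraries and 3.58 ± 0.307 TPM in vehicle 1 to 3, and it passed in 15 of 15 alternatives. With AOAH it was 0.21 ± 0.10 (adjusted p = 0.152), and AOAH against PC gave -0.52 ± 0.08 (adjusted p = 0.00127). Idi2 was a minor transcript beside Idi1 in every library.

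Fdft1 encodes squalene synthase, the first step committed to sterols. It had 14.1, 15.5, 15.8 and 16.3 TPM in AOAH libraries, 17.1, 15.8 and 16.1 TPM in PC libraries and 14.8, 16.2, 15.2 and 16.8 TPM in vehicle libraries, and all groups overlapped. No comparison passed, with log2 changes of -0.03 (95% interval -0.17 to 0.11, limma adjusted p = 0.766) with AOAH, 0.08 (-0.06 to 0.22, adjusted p = 0.391) with PC, and -0.08 (-0.22 to 0.06, adjusted p = 0.309) for AOAH against PC. The intervals allow a level of up to 1.17 times that of vehicle with PC. Fdft1 overlaps Ctsb on the opposite strand, which shares 17.6% of its 31-base stretches and ran at 50.1 to 69.9 TPM, and without a stated use of strand their shared reads cannot be told apart.

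Sqle encodes squalene epoxidase, the oxygen-dependent step that follows squalene. Its levels were the closest of the 7, at 37.7, 40.1, 39.0 and 38.8 TPM in AOAH libraries, 38.0, 38.8 and 40.0 TPM in PC libraries and 38.1, 37.2, 37.6 and 36.1 TPM in vehicle libraries. The lowest library of AOAH and of PC lay within the vehicle range. The log2 changes were 0.06 (95% interval -0.02 to 0.14, limma adjusted p = 0.242) with AOAH, 0.05 (-0.05 to 0.14, adjusted p = 0.446) with PC and -0.002 (-0.09 to 0.08, adjusted p = 0.967) between AOAH and PC.

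Cyp51 encodes the P450 enzyme that takes the 14-alpha methyl group from lanosterol. AOAH libraries had 48.3, 50.9, 49.9 and 52.0 TPM, PC libraries 57.8, 53.2 and 52.9 TPM, and vehicle libraries 44.0, 41.2, 45.1 and 42.4 TPM. Both treated groups lay wholly above vehicle and PC wholly above AOAH. AOAH cells averaged 50.3 ± 1.59 TPM and vehicle cells 43.2 ± 1.75 TPM (SD, n = 4 each), a log2 change of 0.22 ± 0.04 (0.12 to 0.31, limma adjusted p = 0.00491). With PC it was 54.6 ± 2.78 TPM, against 43.4 ± 2.04 TPM in vehicle 1 to 3 (n = 3 each), a change of 0.32 ± 0.05 (0.20 to 0.45, adjusted p = 0.00810). These calls held in 17 of 17 and 16 of 16 alternatives. AOAH against PC gave -0.12 ± 0.04 (-0.22 to -0.01, adjusted p = 0.0624), which did not pass. The authors' deposited table gave Cyp51 log2 changes of 0.22 ± 0.05 with AOAH (adjusted p = 0.00108) and 0.34 ± 0.07 with PC (adjusted p = 1.31e-05). Cyp51 overlaps Akap9 on the opposite strand, with 3.07% of its 31-base stretches shared and 6.95 to 11.9 TPM, so a small share of its reads cannot be told apart from those of Akap9.

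Insig1 encodes the sterol sensor that holds SCAP and SREBP in the endoplasmic reticulum, and is itself among the most direct SREBP2 targets. It had 30.02, 29.45, 29.31 and 30.49 TPM in AOAH libraries, 33.36, 31.87 and 32.85 TPM in PC libraries and 30.96, 28.21, 31.66 and 26.27 TPM in vehicle libraries. PC was above all others, AOAH lay within the vehicle range, and vehicle was the most spread. Log2 changes were 0.03 with AOAH (95% interval -0.10 to 0.16, limma adjusted p = 0.756) and 0.11 with PC (-0.02 to 0.24, adjusted p = 0.216). Against PC it fell by 0.13 ± 0.04 in AOAH cells (adjusted p = 0.0219). That call was lost with batch as a replicate block (adjusted p = 0.0647), in 1 fit over all 11 libraries (0.0921), and without AOAH 2 (0.0521), PC 1 (0.0761) or PC 3 (0.0690).

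Srebf2 encodes SREBP2. AOAH libraries had 92.2, 93.1, 99.5 and 100.1 TPM, PC libraries 94.5, 100.3 and 98.3 TPM, and vehicle libraries 90.3, 86.9, 92.5 and 86.1 TPM. AOAH overlapped vehicle only at its lowest library, and PC lay above all vehicle libraries. The log2 change was 0.11 ± 0.04 with AOAH (95% interval 0.02 to 0.20, limma adjusted p = 0.0641) and 0.12 ± 0.04 with PC (0.03 to 0.21, adjusted p = 0.0744), higher in 4 of 4 and 3 of 3 same-batch pairs, and neither passed. AOAH passed in 3 of 17 alternatives, which were 1 fit over all 11 libraries (adjusted p = 0.0442), median-of-ratios scaling (0.0411) and the fit without AOAH 1 (0.0497). PC passed in 4 of 16, which were 1 fit over all 11 libraries (0.0314), median-of-ratios scaling (0.0312), quantile scaling (0.0307) and the fit with vehicle 4 added (0.0354). AOAH and PC differed by -0.02 (-0.12 to 0.07, adjusted p = 0.685). Srebf2 RNA says nothing of how much SREBP2 was cut or in the nucleus.

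In the authors' deposited tables, the signs of all 7 genes were those given here in both comparisons with vehicle. Those tables called Idi1 and Cyp51 higher with AOAH and Cyp51 higher with PC, and none of the 7 lower. The share of all genes called in those tables was not computed here, so these counts stand without a background. They come from the same libraries. Their base means over the libraries of the AOAH comparison, in normalized counts, were 871 for Fdft1, 3319 for Cyp51, 6523 for Idi1 and 6995 for Srebf2, which gives Fdft1 the least counting precision of these 4.

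**Figure D3:**
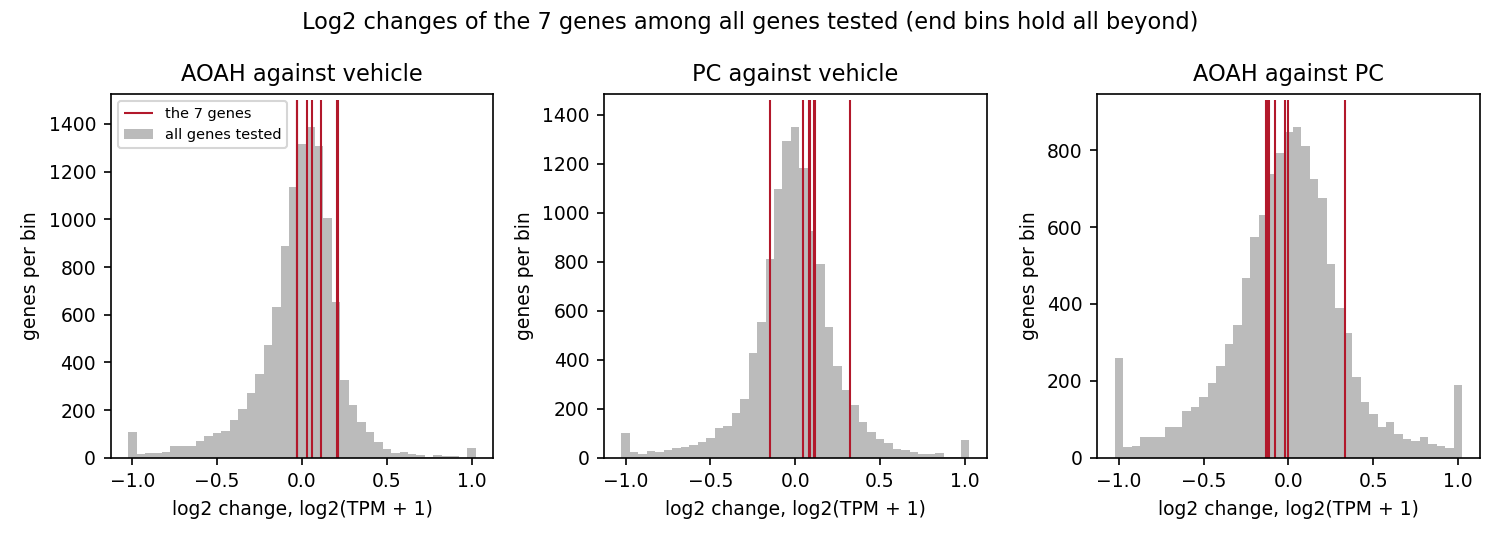
Number of genes per 0.05 bin of log2 change for all genes tested in each comparison, with red lines for the 7 genes and end bins that hold all genes beyond. The 7 lines lie between -0.15 and 0.33, within the bulk of all genes.

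Summed over the 7 genes, TPM was 441, 453, 442 and 457 in AOAH libraries, 431, 430.4 and 428 in PC libraries and 419, 405, 425 and 396 in vehicle libraries. Idi1 makes up the largest share of these sums. When each gene was scaled to its own mean and SD, the mean of the 7 was -0.37, 0.34, 0.11 and 0.48 SD in AOAH libraries, 0.60, 0.49 and 0.72 SD in PC libraries and -0.35, -0.66, -0.28 and -1.08 SD in vehicle libraries. AOAH libraries had 1, 3, 5 and 6 of the 7 genes above their own mean, PC libraries 5, 6 and 6, and vehicle libraries 2, 2, 2 and 1. Vehicle was below 0 in every library and PC above it, while AOAH 1 fell among the vehicle libraries. Scaling gives equal weight to each gene, also to the 5 that passed in neither comparison with vehicle. No such counts or means were made over all genes, so these values describe the 7 without a test.

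The scaled profiles over 11 libraries show how alike the 7 genes were. The closest pair was Cyp51 and Srebf2, whose scaled values differed by 0.479 SD on average. Sqle was nearest to Srebf2 at 0.584 SD, Insig1 to Cyp51 at 0.620 SD, Hmgcs1 to Insig1 at 0.702 SD and Fdft1 to Cyp51 at 0.815 SD. Idi1 stood farthest, at 0.927 SD from Sqle. These are distances to the nearest of the 7, where the median gene outside the 7 lay 1.07 SD from Insig1 to 1.14 SD from Cyp51. Each of the 7 had a gene outside the 7 that lay nearer than any of them, as given below. The libraries share batches, so these distances describe them without a test. Among all genes, the nearest to the mean of the 7 were Tmem251 at 0.298 SD, Cpd at 0.336 SD, Hdac7 at 0.349 SD, Extl3 at 0.363 SD and Sec61a1 at 0.365 SD, where the median gene was at 0.911 SD. The single nearest genes were Rtf2 for Hmgcs1 (0.237 SD), Cipc for Sqle (0.333 SD), Gm4204 for Idi1 (0.113 SD), Ipcef1 for Insig1 (0.199 SD), Rpl41 for Fdft1 (0.361 SD), Sh2d2a for Cyp51 (0.190 SD) and Srgap3 for Srebf2 (0.200 SD).

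Among 35 other genes of sterol synthesis, uptake and control, of which 34 were tested, AOAH raised 4 and lowered 4 (23.5% of the list, against 25.2% of all genes tested), with a median log2 change of -0.03. PC raised 1 and lowered 3 (11.8%, against 19.5% of all genes), and the median was 0.02. AOAH against PC gave 5 higher and 9 lower (41.2%, against 45.8% of all genes), with a median change of -0.06. The 6 other enzymes from acetyl-CoA to squalene summed to 255 to 269 TPM in AOAH libraries, 265 to 271 TPM in PC libraries and 255 to 261 TPM in vehicle libraries. The 11 other enzymes after squalene summed to 328 to 339 TPM in AOAH libraries, 332 to 342 TPM in PC libraries and 332 to 341 TPM in vehicle libraries.

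Among these enzymes, Mvd, the decarboxylase that makes isopentenyl diphosphate, fell with AOAH by 0.20 on the log2 scale (18.1 ± 1.25 TPM in AOAH and 20.9 ± 1.02 TPM in vehicle cells, adjusted p = 0.0330), a call lost in 8 of 17 alternatives at limma adjusted p values up to 0.0849, including without AOAH 1, 2 or 3 and without vehicle 2, 3 or 4. Acat2, which joins acetyl-CoA units at the entry to the pathway, fell with PC by 0.33 (26.3 ± 1.35 TPM in PC libraries and 33.1 ± 0.934 TPM in vehicle 1 to 3, adjusted p = 0.00708).

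After squalene, Ebp, the sterol isomerase, fell with AOAH by 0.13 (28.8 ± 0.931 TPM in AOAH and 31.5 ± 0.937 TPM in vehicle cells, limma adjusted p = 0.0423). The Ebp call was lost in 10 of 17 alternatives, with adjusted p values up to 0.105, among them the replicate block (0.0821) and every leave-out but that of AOAH 1. None of the 11 enzymes passed with PC. Msmo1, the sterol methyl oxidase that acts after Cyp51, was lower in AOAH than in PC cells (19.6 ± 0.307 TPM in AOAH and 26.3 ± 1.69 TPM in PC cells, log2 change -0.40, adjusted p = 4.16e-04), and its 4 vehicle libraries spread from 20.7 to 29.3 TPM.

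Uptake and transport genes held the largest rises of the list with AOAH, 3 higher and 1 lower of 6 tested, where 13.1% of all genes were higher and 12.1% lower. Stard4, a carrier of cholesterol between membranes, had 25.2, 25.6, 29.2 and 29.7 TPM in AOAH libraries, 20.0, 20.4 and 21.0 TPM in PC libraries and 21.4, 20.2, 20.4 and 19.6 TPM in vehicle libraries. AOAH lay wholly above the others, with a log2 change of 0.41 ± 0.06 against vehicle (limma adjusted p = 0.00201). Tmem97, a regulator of the cholesterol transporter NPC1, averaged 103 ± 4.62 TPM in AOAH and 85.6 ± 1.37 TPM in vehicle cells (0.26, adjusted p = 0.00108), and Scarb1, the receptor for high-density lipoprotein, 39.9 ± 1.70 TPM in AOAH and 33.3 ± 1.72 TPM in vehicle cells (0.25, adjusted p = 0.00539). Both fell with PC, Scarb1 by 0.31 (27.4 ± 0.416 TPM in PC libraries and 34.0 ± 0.911 TPM in vehicle 1 to 3, adjusted p = 0.00407) and Tmem97 by 0.20 (75.2 ± 4.26 TPM in PC libraries and 86.2 ± 0.955 TPM in vehicle 1 to 3, adjusted p = 0.0266). The Tmem97 call with PC was lost in 6 of 16 alternatives, with adjusted p values up to 0.0825, without a filter and without PC 2, PC 3 or any 1 of the vehicle libraries. In the authors' deposited DESeq2 table, Tmem97 did not pass with PC (log2 change -0.18 ± 0.09, adjusted p = 0.166) and Scarb1 did (-0.30 ± 0.09, 0.0117). The order of groups in Scarb1 and Tmem97 is that of the summed cycling genes given above, whose part was not tested.

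Lipa, the lysosomal lipase that frees cholesterol from lipoprotein esters, fell with AOAH by 0.22 (13.8 ± 0.671 TPM in AOAH and 16.2 ± 0.675 TPM in vehicle cells, limma adjusted p = 0.0158, or 0.0588 with batch as a replicate block). In the authors' deposited DESeq2 table, 3 of the 4 genes of the list called lower with AOAH did not pass. These were Lipa (log2 change -0.23 ± 0.10, adjusted p = 0.0809), Mvd (-0.22 ± 0.11, 0.191) and Ebp (-0.14 ± 0.09, 0.375). Mylip, described below, passed there (-1.19 ± 0.16, adjusted p = 3.02e-11).

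Of 11 tested genes that control SREBP or degrade pathway proteins, AOAH lowered 1 and raised 0. Over all genes 25.2% were called, 13.1% higher and 12.1% lower. PC raised 1 and lowered 0, where 19.5% of all genes were called, 8.27% higher and 11.2% lower. AOAH against PC gave 0 higher and 4 lower, where 24.3% of all genes were higher and 21.5% lower. In either direction that was 36.4% of the list, against 45.8% of all genes. Mylip, a ubiquitin ligase and a target of the liver X receptor, had 3.19, 2.5, 3.47 and 2.71 TPM in AOAH libraries, 7.11, 7.57 and 7.61 TPM in PC libraries and 6.93, 6.58, 6.70 and 6.60 TPM in vehicle libraries. It was the largest change on the list, with AOAH wholly below the other groups at -0.96 ± 0.09 on the log2 scale against vehicle (limma adjusted p = 1.21e-04) and -1.09 against PC (adjusted p = 8.14e-05). Syvn1, the ubiquitin ligase also called HRD1, was higher with PC (18.7 ± 1.64 TPM in PC libraries and 14.9 ± 0.815 TPM in vehicle 1 to 3, 0.31, adjusted p = 0.0329), a call lost in 7 of 16 alternatives, among them the replicate block (0.0664) and the fits without PC 2 (0.0875), PC 3 (0.0869), vehicle 1 (0.101), vehicle 2 (0.0820) or vehicle 3 (0.0501). Scap, the escort of SREBP, had log2 changes of 0.02 with AOAH (adjusted p = 0.889) and -0.07 with PC (adjusted p = 0.487). Srebf1, which encodes the factor that mainly drives fatty acid synthesis, had -0.04 with AOAH (adjusted p = 0.700) and 0.07 with PC (adjusted p = 0.432).

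Between AOAH and PC, the higher genes of the list included Scarb1 (log2 change 0.53), Tmem97 (0.44), Stard4 (0.40) and Acat2 (0.35), with limma adjusted p values of 5.02e-05 to 0.00406. The lower ones of lowest p were Mylip, Msmo1, Lipa (-0.34), Mvd (-0.33) and Syvn1 (-0.33), with adjusted p values of 8.14e-05 to 0.00562. All of these calls held in every alternative run.

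**Figure D4:**
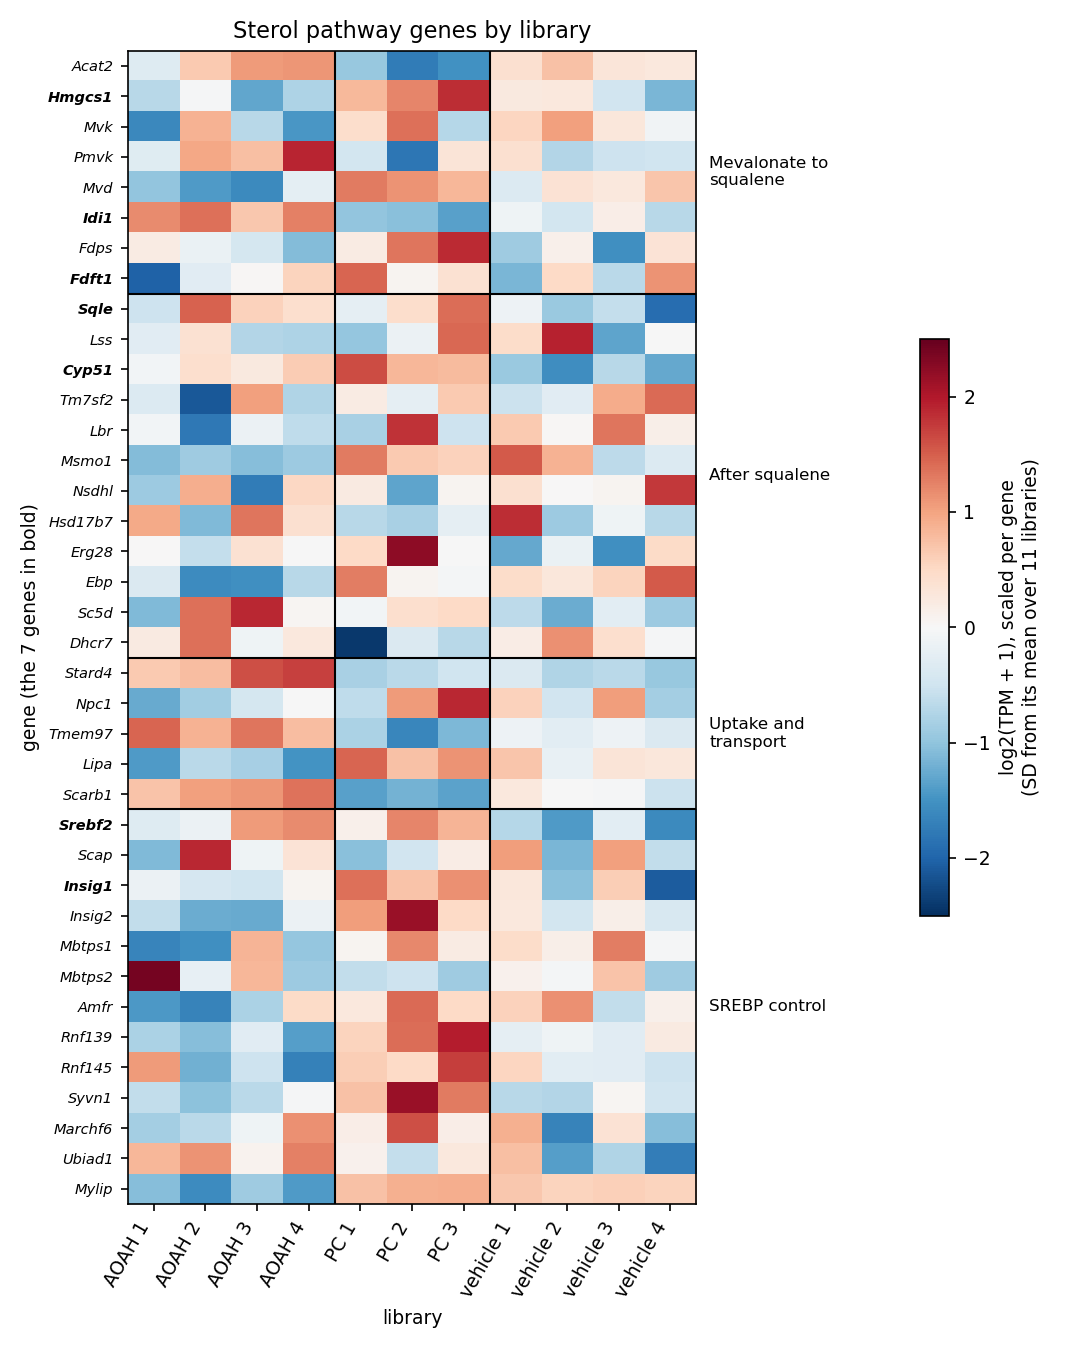
Log2(TPM + 1) of 38 sterol pathway genes in each library, scaled per gene to SD from its mean over 11 libraries, in 4 blocks by role. The 7 genes are in bold, red is above and blue below the mean. Scarb1, Tmem97 and Stard4 are red in all 4 AOAH libraries, where Mylip is blue.

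Lists of neighbouring pathways are given as counts, to be read against the shares of all genes called, 25.2% with AOAH (13.1% higher, 12.1% lower), 19.5% with PC (8.27% higher, 11.2% lower) and 45.8% for AOAH against PC (24.3% higher, 21.5% lower). Of genes of fatty acid synthesis and SREBP1, AOAH raised 0 and lowered 1 of 10 tested, and PC raised 0 and lowered 2 of 9. AOAH against PC gave 7 higher and 1 lower of 10 of them, with a median log2 change of 0.26 where that of all genes was 0.003. The next list held 8 tested genes of the liver X receptor, its targets and sterol transport, export or storage. Of these, AOAH raised 0 and lowered 4 (median log2 change -0.27, against 0.01 over all genes). PC raised 2 and lowered 0, and AOAH against PC gave 0 higher and 5 lower. The receptor's own gene was among those lowered with AOAH and raised with PC, so the counts are not of targets or exporters alone. Abca1, the main cholesterol exporter, was too low to test, at 0.25 to 0.34 TPM in AOAH libraries, 0.41 to 0.71 TPM in PC libraries and 0.53 to 0.75 TPM in vehicle libraries. The authors' deposited table gave it a log2 change of -1.26 ± 0.280 with AOAH (adjusted p = 1.19e-04). Of 11 isoprenoid branch genes, AOAH raised 1 and lowered 0, PC raised 0 and lowered 1, and AOAH against PC gave 3 higher and 1 lower. In either direction these were 9.09%, 9.09% and 36.4% of the list, each below the share of all genes called. The 3 higher in AOAH against PC, taken alone, were not below the 24.3% of all genes that were higher.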

How the data were processed

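Polyadenylated RNA was measured in 11 libraries (4 AOAH, 3 PC, 4 vehicle), grouped by the labels. The authors quantified transcripts with RSEM on build mm39, per the submitters' processing notes, and deposited log2 values of TPM + 1. Not given in the sources used here are the aligner, annotation, versions and any use of strand or molecular identifiers. TPM keeps no depth, so depth per library is unknown and no counting interval was computed. The authors' deposited DESeq2 tables hold, per the file headers, the log2 fold change and its error, the Wald score, the p-value before and after adjustment, and a mean signal in normalized counts. The authors' deposited receptor repertoire table was not used here.

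From log2(TPM + 1), limma 3.58.1 in R 4.3.3 with a mean-variance trend and robust estimation was fitted to all genes that averaged 1 TPM or more in the libraries of a comparison. It was two-sided, with Benjamini-Hochberg adjustment over all genes tested. Changes of low genes are understated on this scale. PC was compared with vehicle 1 to 3, the vehicle libraries whose labels name that comparison. The members and lists were chosen with earlier results of these data known. Named from the wider lists were Scap, Srebf1 and Abca1 always, and per comparison the 5 higher and 5 lower genes of lowest p among those called; some genes of this rule are not reported here. Genes of like pattern were those with the smallest mean absolute difference in scaled profile. Same-numbered libraries share a batch by label, so pairing was taken from the labels. Where the ranges of groups do not overlap, every pair must point the same way, so counts of pairs add nothing there. Deviations from group means correlated at -0.003 on average within batches (10 pairs, -0.08 to 0.12) and at 0.001 across them (30 pairs). Alternatives were other pseudocounts, filters, scalings, library weights and fits, the batch block, vehicle 4 added to PC and each library left out. The fit was tested on simulated data with 200 changed genes. Promoters came from RefSeq (GRCm38.p6). Shared 31-base stretches were counted in GENCODE M21 transcripts.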

Additional observations from a re-analysis of the deposited data

Results flagged for a closer look

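Srebf1 in vehicle 4 stood apart from its group, at 45.6 TPM, where the other 3 vehicle libraries had 39.7 to 40.5 TPM. It was the only one of 40 groups of 4 libraries over the named genes with an end value this far from the rest, where chance marks about 1 in 20. Without vehicle 4 its log2 change with AOAH was 0.007, against -0.04 with it, and neither passed the threshold.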

How the results depend on the processing

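Of 812 values of single genes under the alternatives, 747 kept their direction and side of the threshold, 46 lost a call, 8 gained one and 11 turned direction, all of the last uncalled. Of 196 counts, 166 stayed within 1.5 times the reported count. Other wider-list genes lower with AOAH numbered 2 with no filter and 2 with batch as a replicate block, and 2 to 3 with a library left out. With PC, members higher numbered 2 in 1 fit over all 11 libraries, with median-of-ratios or quantile scaling and with vehicle 4 included, where Srebf2 passed too. Members lower with PC numbered 0 with no filter, 0 with the block, and 0 to 1 with a library left out. Wider-list genes higher with PC numbered 0 with no filter and with the block, 2 in 1 fit over all 11 libraries, with quantile scaling and with vehicle 4 included, and 0 to 1 with a library left out. Members lower in AOAH against PC numbered 1 in 1 fit over all 11 libraries, 0 with the block, and 0 to 2 with a library left out. Under the block the other counts stayed within 1.5 times. The cause of these shifts was not tested, except that leave-outs have fewer samples.

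Directions that turned were all of uncalled genes near 0. With AOAH, Fdft1 came to 0.00163 and Scap to -0.0101 with quantile scaling. With a library left out, Insig1 ranged over -0.0198 to 0.0669, Fdft1 over -0.0570 to 0.0117, Scap over -0.0357 to 0.0597 and Srebf1 over -0.0891 to 0.00676. In AOAH against PC, Sqle ranged over -0.0191 to 0.0166. TPM values give no depth, so in these fits the precision of low genes such as Fdft1 or Idi2 rests on the spread between libraries. The authors' deposited base means in the AOAH comparison were 871 normalized counts for Fdft1 and 144 for Idi2.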
